A study of Drosophila yakuba and Drosophila melanogaster with 20 samples.

Results

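Unlisted A-to-G positions beside known RNA editing sites of adult Drosophila melanogaster heads were 587 in number. The positions were chosen by values read in these tables: each was absent from the authors' site list, lay within 100 bp of a listed site whose edited base was known, showed A-to-G on the edited strand of that site, and appeared in 2 or more of 4 tables of base differences. The 4 tables together held 1724759 distinct position and base pairs, and the site list held 1238 sites, of which 1084 had a known base because their A-to-G (or, from the reverse strand, T-to-C) change appeared in at least 1 table. The tables came from mock-treated (acrylonitrile-free) head RNA of the strain y; cn, bw, sp, with 2 libraries under the name of the NextSeq instrument (86-nt reads) and 2 under that of the HiSeq instrument (50-nt reads). In the mock treatment the RNA, 5 µg of total RNA per sample, was incubated at 70 °C for 1 h. Each sample pooled about 50 heads, and the labels do not say whether replicates came from separate flies, so differences between tables can be technical. The other 16 of the 20 samples in the series, from ICE-treated and mock-treated D. melanogaster and D. yakuba heads, entered only through the site list or were not analysed here.

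Adenosine deaminases acting on RNA (ADARs) convert adenosine to inosine in double-stranded RNA. Inosine is read as guanosine, so an edited base appears as A-to-G, or as T-to-C in a genome-strand table when the transcript runs on the reverse strand. The single fly Adar gene acts mainly in the nervous system, where many recoding sites lie in transcripts of ion channels and synaptic proteins, and long duplexes can be edited at many neighbouring adenosines. ICE-seq, the method behind the site list, uses acrylonitrile to block reverse transcription at inosine. The strain y; cn, bw, sp is the one from which the D. melanogaster reference genome was made.

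The tables give position, reference base and differing base, without read counts, so depth and editing level are unknown. The number of differences was 419113 and 1087962 in NextSeq replicates 1 and 2, against 115079 and 196988 in HiSeq replicates 1 and 2. The differing base is written in upper or lower case, taken here as forward and reverse read strand, which the files do not define. A position written in both cases is called seen on both read strands. Ranges given after a percentage are exact 95% binomial intervals (Clopper-Pearson). They express counting error alone and treat neighbouring positions as independent.

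The sequence around the richest groups shows how closely the unlisted positions lie. Listed sites were joined into groups at gaps of at most 100 bp, and the 4 groups shown, from the 8 richest, were picked for the share of their bases that could be read. No dm3 genome was used, so a base is known only where a table lists a difference; n marks an unknown base, and adenosines that were edited are over-represented among the known letters. Each line runs 5′ to 3′ on the edited strand with 5 bases on either side of the group, and capitals mark the unlisted A-to-G positions.

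Group on 3R, chr3R:5273598-5273686 (dm3, + strand): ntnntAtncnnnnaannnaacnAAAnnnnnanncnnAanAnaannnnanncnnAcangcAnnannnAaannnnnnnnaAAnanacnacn

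Group on X, chrX:15791321-15791361 (dm3, + strand): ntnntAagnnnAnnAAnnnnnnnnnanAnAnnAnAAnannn

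Group on 2L, chr2L:14091455-14091523 (dm3, + strand): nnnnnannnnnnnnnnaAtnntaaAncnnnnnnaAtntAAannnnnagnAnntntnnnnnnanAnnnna

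Group on 3L, chr3L:6943185-6943273 (dm3, - strand): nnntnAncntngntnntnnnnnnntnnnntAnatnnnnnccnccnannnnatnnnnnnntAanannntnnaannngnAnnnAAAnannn

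Counted from letter 1 of each line, listed sites stood at letters 63, 68, 69 and 84 of the 3R line, at letter 7 of the X line, at letters 6, 23 and 24 of the 2L line and at letters 62, 64 and 71 of the 3L line. The known bases numbered 40 of 89 letters in the 3R line, 15 of 41 in the X line, 24 of 69 in the 2L line and 32 of 89 in the 3L line. Unlisted positions stood side by side in several places, such as 3 capitals in a row in the 3R and 3L lines.

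The group on 3R held 11 unlisted positions, the most of any group, beside 4 listed sites. Its first rank depended on the tables used. Without HiSeq replicate 2 it held 6, as did each other group of the 8 richest except the one on X from 10141930, which held 3. With 3 or more tables required it held 4, against 6 in the X group and 5 in the 2R group, both described next. The 2L group from 2785524 then held 6. The 3R group held 7 without NextSeq replicate 1, where the X and 2R groups held 9 each. It also held 7 without NextSeq replicate 2, where the X group held 8 and the 2R group 7. Without positions that any table also lists with another base it held 7, against 8 in the X group and 9 in the 2R group. The 11 positions on 3R lay at offsets of -57 to -1 bases from the nearest listed site, and all 11 were therefore on its 5′ side. NextSeq replicates 1 and 2 listed 7 and 8 of the 11, and HiSeq replicates 1 and 2 listed 5 and 9. The position 3R:5273622, 38 bases 5′ of its nearest listed site, was listed in all 4 tables and seen on both read strands in 3, the exception being NextSeq replicate 1. At least 1 table also lists it with another base.

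The group on X from 15791326 to 15791356 held 9 unlisted positions around a single listed site within 31 bp. Their offsets ran from -1 to 29 bases, and 4 of them were in all 4 tables. NextSeq replicates 1 and 2 listed 6 and 5 of the 9, HiSeq replicates 1 and 2 listed 8 and 9, and the listed site itself was in all 4 tables. A second group with 9 unlisted positions and 1 listed site, at 2R from 9404766 to 9404874, spanned 109 bp with offsets of -22 to 86 bases. It included 5 unlisted positions at consecutive bases, 9404777 to 9404781.

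Each of the other 5 of these 8 groups held 7 unlisted positions. The group on 2L from 14091460 to 14091518 and the group on 3L from 6943190 to 6943268 had 3 listed sites each, as did the group on 2L from 2785524 to 2785621. The 3L group held 4 unlisted positions without NextSeq replicate 1. The group on X from 10141930 to 10141999 had 2 listed sites and no position in all 4 tables, and held 2 unlisted positions without NextSeq replicate 2 and 3 without HiSeq replicate 2, and the group on X from 16367633 to 16367732 had 1 listed site and 3 positions in all 4 tables. Transcripts and genes at these coordinates were not annotated here, so neither exon nor intron is given.

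**Figure D1:**
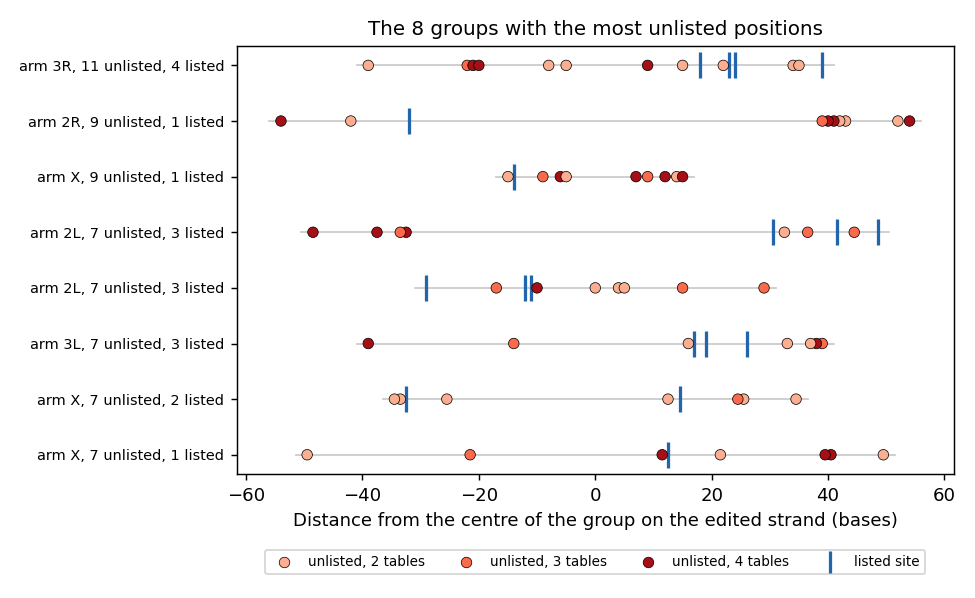
The 8 groups with the most unlisted positions, drawn to scale along the edited strand (x axis: bases from the centre of each group). Circles are unlisted positions, shaded by the number of tables that list them (2, 3 or 4), and bars are listed sites; unlisted positions outnumber listed sites in every group shown.

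Unlisted positions were spread over many groups. Of the 785 groups of listed sites, 693 had at least 1 site of known base, and 293 of these (42.3%, 38.6 to 46.1) had an unlisted position. Without NextSeq replicate 2 or HiSeq replicate 2 the number of such groups was 168 or 170. A single unlisted position occurred in 150 groups, 2 in 71 groups, 3 in 36 groups and 4 or more in 36 groups. The 19 groups with 5 or more held 119 of the 587 positions (20.3%). In 103 groups unlisted positions outnumbered the listed sites, and 78 of these groups had 1 listed site.

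By count, the share of groups with an unlisted position was higher where more sites were listed, while the number per listed site was lower. It was 67.2% (53.7 to 79.0) of 58 groups with 4 or more listed sites, 49% (34.4 to 63.7) of 49 groups with 3, 47.2% (38.1 to 56.4) of 123 groups with 2 and 37.1% (32.7 to 41.7) of 463 single sites. The mean number of unlisted positions per group was 1.48, 1.31, 0.959 and 0.689 in the same order. Per listed site there were 0.306, 0.435, 0.480 and 0.689 unlisted positions. A larger group covers more bases within 100 bp, and listed sites leave fewer unlisted adenosines, so the group sizes do not offer equal numbers of positions; their part in these shares was not tested.

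The unlisted positions, which had to lie beside listed sites, were distributed over the chromosome arms much like the site list. X held 185 of them (31.5%, 27.8 to 35.4), against 33.3% (30.7 to 36.0) of listed sites and 19.4% of far positions. Far positions were 6436 unlisted positions with the same pair of changes, A-to-G or T-to-C, in 2 or more tables and over 10000 bp from any listed site. The arm 3R held 113 unlisted positions, 2L 89, 2R 84 and 3L 83. Chromosome 4 held 20 (3.41%, 2.09 to 5.21), against 2.58% (1.77 to 3.63) of listed sites. Per listed site of known base, the main arms and chromosome 4 ranged from 0.466 on 3L to 0.690 on chromosome 4, around 0.542 over all. Heterochromatin scaffolds held 13 unlisted positions (2.21%), against 32 listed sites (2.58%).

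**Figure D2:**
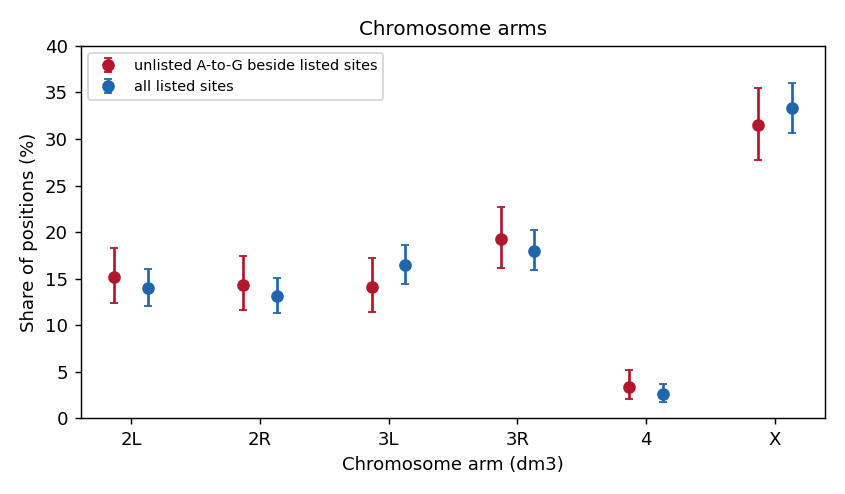
Share of the 587 unlisted positions and of the 1238 listed sites (y axis, percent) on each main chromosome arm of dm3 (x axis), with exact 95% binomial intervals as bars. The intervals of both classes overlap on every arm shown, with X highest at 31.5% and 33.3%.

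Unlisted positions lay close to the listed site on both sides of it. Among all 1377 unlisted differences in 2 or more tables within 100 bp, 42.6% were A-to-G on the edited strand, a share that the inclusion rule itself picks out. The median distance was 11 bases (quartiles 4 and 37.5), against 46 bases for the 759 other base changes in the same windows and 49 bases for the 224 of these that fell on adenosines of the edited strand. Within 10 bases lay 281 unlisted positions (47.9%, 43.8 to 52), against 91 other base changes (12%, 9.76 to 14.5). The 224 other changes at adenosines included 18 within 10 bases (8.04%, 4.83 to 12.4). The median gap between neighbouring listed sites, taken over the 453 gaps of at most 100 bp, was 5 bases.

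The base directly beside a listed site was the most frequent place. There were 39 unlisted positions at offset 1, directly 3′ of a listed site, and 38 at offset -1, against 6 and 1 other base changes. At 2 bases there were 25 on the 3′ side and 14 on the 5′ side. Per base and side, the density of unlisted positions was 38.5 at 1 base, 19.5 at 2 bases, 12.0 at 3 to 5 bases, 9.30 at 6 to 10 bases, 4.40 at 11 to 20 bases, 1.95 at 21 to 50 bases and 1.01 at 51 to 100 bases. Other base changes stayed between 3.42 and 5.20 over the same distances.

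**Figure D3:**
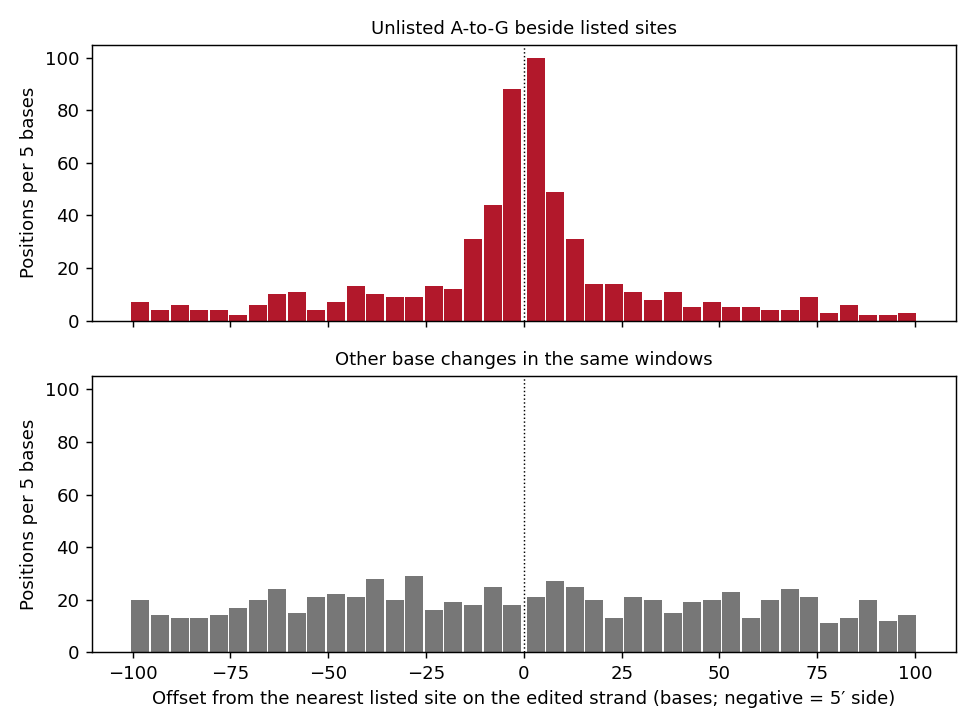
Number of positions per 5 bases (y axis) by signed offset from the nearest listed site of known base on the edited strand (x axis, bases, negative on the 5′ side), for the 587 unlisted A-to-G positions above and the 759 other base changes below. The upper panel peaks on both sides of 0, while the lower panel has no such peak.

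Unlisted positions were divided evenly between the 5′ and 3′ sides of the listed site. On the 5′ side lay 294 of 587 (50.1%, 46.0 to 54.2), against 387 of 759 other base changes (51%, 47.4 to 54.6). By library the 5′ share of unlisted positions was 47.8% and 51% in NextSeq replicates 1 and 2 and 48.6% and 49.9% in HiSeq replicates 1 and 2. For other base changes it was 50.5% and 51.2% on NextSeq and 48.8% and 51.6% on HiSeq. The mean difference within libraries was -1.21 points (exact sign-flip permutation test over 4 libraries, two-sided, p = 0.13, the smallest possible), lower in 4 of 4 libraries. This direction was not stable: with 3 or more tables required the difference was 1.02 points, and without NextSeq replicate 1 it was 0.134 points. Against the other changes at adenosines of the edited strand alone it was -0.293 points (same exact sign-flip test, p = 0.625). That comparison was added after the data were seen.

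Some unlisted positions extended runs of changed bases. Of the 587, 78 were directly adjacent to a listed site, 4 of them between listed sites on both sides, and 97 were adjacent to another unlisted position. Counting listed and unlisted positions together, 33 runs of 3 or more consecutive bases contained an unlisted position. The longest, 7 bases at X from 3236813 to 3236819, held 5 listed and 2 unlisted positions. Of the 268 unlisted positions in groups with 2 or more listed sites, 81 lay between the outermost listed sites.

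At the edges of the inclusion rule, positions on the edited strand were still more numerous than those on the opposite strand. Over 90 and up to 100 bp away there were 16 on the edited strand and 1 on the opposite strand, and over 100 and up to 110 bp away, just outside, there were 12 and 3. In exactly 1 table, one fewer than required, 1452 positions lay on the edited strand within 100 bp and 445 on the opposite strand. These counts describe the rule and were not tested.

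Recurrence across tables lay between that of far positions and that of listed sites. Of the unlisted positions 394 (67.1%, 63.2 to 70.9) were in 2 tables, 125 (21.3%) in 3 and 68 (11.6%, 9.11 to 14.5) in all 4. Of the far positions 2.47% (2.11 to 2.88) were in all 4 tables, and 41.4% (38.1 to 44.8) of the 874 listed sites in 2 or more tables were in all 4. Because recurrence was part of the rule, these shares are descriptions. NextSeq replicates 1 and 2 listed 253 and 463 of the unlisted positions, and HiSeq replicates 1 and 2 listed 276 and 443, so both libraries of replicate 2 held more. Without NextSeq replicate 2 the rule gave 296 positions, and without HiSeq replicate 2 it gave 309.

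Recurrence followed the replicate number. Of the 394 positions in 2 tables, 223 were in the tables of replicate 2 on both instruments and 55 in those of replicate 1, together 70.6%. Another 54 (13.7%) were in both replicates of one instrument and 62 (15.7%) in neither kind of pair. Among all unlisted positions the replicate 2 pair alone made up 38.0%, against 45.1% of far positions and 28.1% of listed sites. The replicate 1 pair made up 9.37%, against 28.0% of far positions and 1.03% of listed sites. The wording of the design leaves it possible that each preparation was run on both instruments, and tables with the same number would then not be independent.

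**Figure D4:**
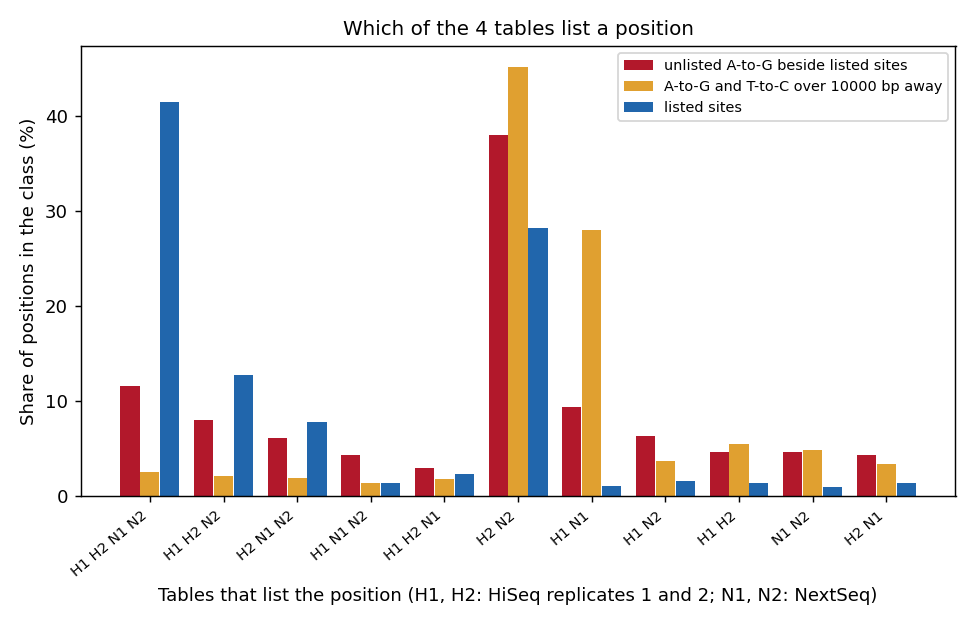
Share of each class (y axis, percent) by the exact set of tables that list a position (x axis; H1 and H2 are HiSeq replicates 1 and 2, N1 and N2 NextSeq replicates 1 and 2), for the 587 unlisted positions, the 6436 far positions and the 874 listed sites in 2 or more tables. Positions in all 4 tables make up 11.6% of the unlisted positions, 2.47% of far positions and 41.4% of listed sites.

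Without regard to recurrence, unlisted positions were seen on both read strands more often than far positions and less often than listed sites in each library. The read strand was not used to choose them. In at least 1 table both strands were seen for 197 of 587 (33.6%, 29.7 to 37.5). The same held for 9.84% of all 9462 unlisted positions with these changes in 2 or more tables, for 6.95% of far positions and for 75.6% (72.6 to 78.4) of listed sites. Of the 31 opposite-strand positions, 1 was seen on both strands (3.23%, 0.0816 to 16.7).

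In NextSeq replicates 1 and 2 both strands were seen at 14.6% (10.5 to 19.6) and 21.6% (17.9 to 25.6) of the unlisted positions listed there. In HiSeq replicates 1 and 2 the shares were 13.4% (9.62 to 18.0) and 23.9% (20.0 to 28.2). For far positions they were 3.78% and 5.21% on NextSeq and 3.57% and 5.43% on HiSeq. For the other base changes in the same windows they were 4.21% (2.65 to 6.30) and 6.91% (5.06 to 9.16) on NextSeq and 10.1% (6.46 to 14.9) and 13.1% (9.19 to 17.9) on HiSeq, closer to the unlisted positions than far positions were. The interval of HiSeq replicate 1 overlapped that of its unlisted positions, and this difference was not tested. For listed sites they were 40.1% and 62.1% on NextSeq and 39.4% and 62.5% on HiSeq. Unlisted positions and listed sites were both lower in replicate 1 than in replicate 2 on each instrument.

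Within libraries, the mean share was 13.9 points higher at unlisted positions than at far positions and 17.1 points higher than at opposite-strand positions, each in 4 of 4 libraries. Opposite-strand positions were few, 14 and 18 in NextSeq replicates 1 and 2 and 15 and 19 in HiSeq replicates 1 and 2. Of the 31, 28 were in exactly 2 tables, with 0% on both strands in each library (upper limits 20.6% to 26.5%). Unlisted positions in exactly 2 tables had 5.61% and 16.4% on NextSeq and 5.88% and 16.4% on HiSeq, below those limits. The difference in exactly 2 tables was not tested. Against listed sites the mean difference was -32.6 points, lower in 4 of 4 libraries. That difference was -16.2 points in exactly 2 tables (exact p = 0.25), -12.6 points in exactly 3 tables (exact p = 0.5) and -32.6 points in all 4 tables, comparisons chosen after the data were seen. In exactly 3 tables the order was reversed in the replicate 1 libraries, with 19.2% of unlisted positions and 11% of listed sites on NextSeq and 13.5% and 11.9% on HiSeq. In exactly 2 tables it was reversed in HiSeq replicate 1, with 5.88% and 5.71%. Each of the 3 comparisons gave p = 0.13 (exact sign-flip permutation over 4 libraries, two-sided, the smallest possible; Benjamini-Hochberg adjusted p = 0.13), so none passed a threshold of 0.05. The 4 libraries list many of the same positions and are not independent measurements of them. If each preparation was run on both instruments there were 2 units and not 4, and the smallest possible p of every sign-flip test given here would be 0.5.

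The difference from far positions depended on recurrence. In exactly 2 tables it was 8.72 points and it was 12.2 points in exactly 3 tables (exact p = 0.13 each). In all 4 tables it was 0.909 points (exact p = 0.875), with the order reversed in the replicate 1 libraries. There the shares were 23.5% of unlisted and 29.6% of far positions in NextSeq replicate 1, 39.7% and 34.6% in NextSeq replicate 2, 26.5% and 28.9% in HiSeq replicate 1, and 44.1% and 37.1% in HiSeq replicate 2. These comparisons at a fixed number of tables were chosen after the data were seen.

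**Figure D5:**
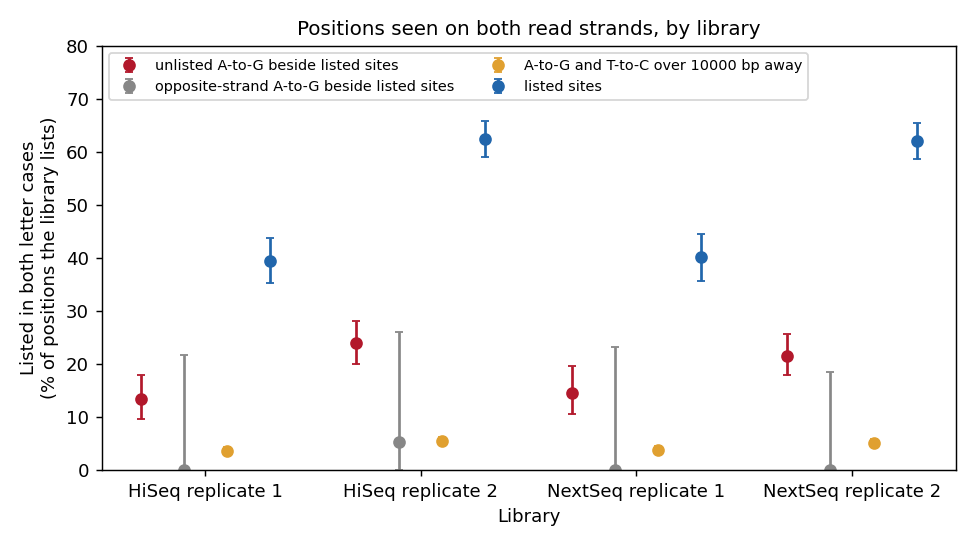
Share of the positions a library lists that were written in both letter cases, read as both read strands (y axis, percent), for each library (x axis) and class of position, with exact 95% binomial intervals. In each library the unlisted positions, 13.4% to 23.9%, lie above far positions and below listed sites.

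The instruments did not differ in this share beyond the spread of their replicates. It was 18.1% ± 4.93 (SD, n = 2) on NextSeq and 18.7% ± 7.44 (SD, n = 2) on HiSeq, a difference of -0.555 points (exact permutation test of the 4 libraries, two-sided, p = 1, the smallest possible being 0.33). The sign turned to 5.92 points without HiSeq replicate 2 and to 2.58 points without NextSeq replicate 1.

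Among the 68 positions in all 4 tables, 6 were seen on both read strands in every table. They were 3R:1062054, 3 bases 5′ of a listed site, 2L:2785610 and 2L:2785621, 68 and 79 bases 5′ of one, 2L:16174194, 82 bases 5′ of one, and 2R:9404780 and 2R:9404766, 72 and 86 bases 3′ of one. Thus 1 of the 6 lay within 10 bases of a listed site, against 35 of the 68 (51.5%, 39.0 to 63.8). Another 6 were seen on both strands in 3 tables, namely 2L:9814581, X:16359911, X:15846383, 2R:9404874, 3R:122817 and 3R:5273622. The positions X:16367671, 2L:8113617 and 3L:24024991, at offsets of -1, -2 and 2 bases, were seen on both strands in 2 tables.

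The nearest listed site was usually in the same table as the unlisted position. When NextSeq replicate 1 listed an unlisted position, it also listed the nearest site for 83.8% of 253 positions, against 51.5% of the 334 positions it did not list. For NextSeq replicate 2 the shares were 92.7% of 463 and 84.7% of 124. For HiSeq replicate 1 they were 88.0% of 276 and 59.5% of 311, and for HiSeq replicate 2 they were 94.1% of 443 and 88.2% of 144.

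The mean difference was 18.7 points, higher in 4 of 4 libraries (exact sign-flip permutation, two-sided, p = 0.13, the smallest possible). Presence in the tables was part of the rule for both the unlisted position and its listed site. Positions in all 4 tables enter only the share for positions that a library lists. The p-value thus describes values that the rule had selected and gives no independent support. The differences were larger in replicate 1, 32.3 and 28.6 points on NextSeq and HiSeq, than in replicate 2, 7.98 and 5.94 points. Leaving out HiSeq replicate 2 or NextSeq replicate 2 lowered the mean to 9.96 and 8.86 points. Coverage of the transcript is not known, and its part in this difference was not tested.

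The bases beside unlisted positions could be read for few of them. They were taken from differences other than A-to-G and T-to-C. A neighbour with such a difference was kept also where it carried A-to-G, so edited neighbours could add to the A share. Their part in it was not tested. On the 5′ side 98 bases were known, of which 47 were A (48.0%, 37.8 to 58.3), 24 T, 20 C and 7 G (7.14%, 2.92 to 14.2). The G share was 11.6% with 1 or more tables required, 3.03% with 3 or more, 3.51% with both replicate numbers and 4.26% within 10 bp. These settings share bases with the 98, so their shares are not independent of it. At the 68 known bases 5′ of listed sites in 2 or more tables, 32 were T (47.1%, 34.8 to 59.6), 27 A, 6 C and 3 G (4.41%, 0.919 to 12.4). On the 3′ side of unlisted positions 37 of 83 known bases were A (44.6%, 33.7 to 55.9) and 14 were G (16.9%, 9.54 to 26.7). At 3 to 10 bases on either side of unlisted positions A made up 38.7% and G 12.6% of 1282 known bases. That 12.6% lay inside the interval of the G share directly 5′ of unlisted positions (2.92 to 14.2). At far positions G made up 25.3% of 1174 known 5′ bases and 18.1% of 15703 known bases 3 to 10 away. A G directly 5′ of the target is a base that ADARs are known to disfavour. Whether G was short beside unlisted positions was not tested.

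Some positions also carried another base change. Of the 587, 74 (12.6%) carried a change other than A-to-G in at least 1 table, and 10 carried one in 2 or more tables. The named positions 2L:2785610, 3R:5273622 and 2L:8113617 were among the 74. Without such positions the groups at 3L from 6943190 and at X from 16367633 held 4 unlisted positions each in place of 7. For 8 of the 587 a listed site of unknown base was nearer than the one used to assign the strand. The reference base was A at 339 unlisted positions and T at 248, against 607 and 477 of the listed sites of known base.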

How the data were processed

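The deposited tables hold positions and bases and the deposited list 1-bp positions, per the file headers and values, with no counts, levels or strand. TopHat 2.0.6 with Bowtie 2.0.2 aligned the reads to dm3 (BDGP R5) with at most 4 mismatches and 1 alignment per read, and bsmap 2.74 with at most 3 mismatches was applied to reads left unmapped, per the labels' protocols. The submitters' processing notes also name SAMtools 0.1.19. The calling of differences and of listed sites, and any minimum depth, are not given in the sources used here. Mismatch limits can hide densely edited reads.

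The inclusion rule and the lists were chosen with earlier results of these data known. The offset is to the nearest listed site of known base, negative on the 5′ side. Named items were the 8 groups with the most unlisted positions and up to 15 positions in all 4 tables, ordered by the number of tables with both letter cases. Tests over libraries were exact permutations. The rule, offsets, table counts, letter cases and permutation p-values were tested on simulated tables with isolated listed sites of known base. Groups of several sites, sites of unknown base, co-listing and neighbouring bases were not covered by that simulation. Python 3.11.15, numpy 2.4.6, pandas 2.3.3, scipy 1.17.1 and matplotlib 3.10.9 were used. No D. melanogaster annotation or genome was used.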

Additional observations from a re-analysis of the deposited data

Results flagged for a closer look

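Positions with the same change also occurred outside the inclusion rule. Within the rule there were 587 on the edited strand and 31 on the opposite strand. In each strand comparison below, the opposite strand had a larger part than that. In exactly 1 table, 1452 positions within 100 bp showed A-to-G on the edited strand, against 445 on the opposite strand. By library these were 187 against 93 in NextSeq replicate 1, 540 against 159 in NextSeq replicate 2, 174 against 70 in HiSeq replicate 1 and 551 against 123 in HiSeq replicate 2. Farther away, 117 positions in 2 or more tables lay on the edited strand over 100 and up to 200 bp away, against 30 on the opposite strand. Over 200 and up to 500 bp away there were 241, against 53. Beside the 154 listed sites of unknown base, 9 positions with A-to-G or T-to-C in 2 or more tables lay within 100 bp of no other kind of listed site. These 9 have no strand to compare with and are given as a count alone.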

How the results depend on the processing

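The number of unlisted positions (587) and of groups with one (293) moved with the rule. They were 2039 and 561 with 1 or more tables, 193 and 117 with 3 or more, 68 and 44 with all 4, 281 and 182 within 10 bp, 945 positions within 500 bp, and 309 and 175 when both replicate numbers were required. Leaving out 1 library at a time gave 296 to 480 positions and 168 to 262 groups, lowest without NextSeq replicate 2. The 5′ share against other base changes (-1.21 points) turned to 1.00 with 1 or more tables, 1.02 with 3 or more, 1.97 within 10 bp, 2.72 within 500 bp and 1.98 with both replicate numbers, and ranged from -2.41 to 0.134 with 1 library left out. The instrument difference in both-strand share (-0.555) turned to 1.65 within 10 bp and 0.283 within 50 bp and ranged from -7.40 to 5.92 with 1 library left out. With the replicate number as a block it was -0.555 points, 1.22 for number 1 and -2.33 for number 2 (exact p = 1, smallest possible 0.5); the labels do not say that the number pairs the samples. The means of the both-strand differences and of the co-listing difference kept their sign under every alternative run. With all 4 tables required, however, the mean difference from far positions was 0.909 points, and its order was reversed in the replicate 1 libraries. With all 4 tables required, no library lacked an unlisted position, so co-listing could not be compared. Presence in the tables was part of the rule, so the stable sign of the co-listing difference gives no independent support. Causes of these changes were not tested. Depth is unknown, which limits every statement about an absent position.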

Other observations

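Where a table showed an unlisted position in 1 letter case, that case matched the edited strand somewhat more often than not. At unlisted positions the share was 60.6% (53.8 to 67.2) and 59.2% (54.0 to 64.3) in NextSeq replicates 1 and 2 and 58.2% (51.6 to 64.5) and 54.6% (49.1 to 60.0) in HiSeq replicates 1 and 2. At far positions, with the strand taken from the base itself, it was 64.0% to 70.7%, and at listed sites 48.1% to 65.6%. At the few opposite-strand positions, also by their own base and so on the other strand than the listed site, it was 64.3% to 66.7%. The difference between these classes was not tested.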
